A study of Oryza sativa with 12 samples.

Results

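The auxin response and transport genes of the rice panicle were read from an Affymetrix rice array as the genes whose annotated name, ignoring a leading Os, is ARF, IAA, SAUR or PIN followed by a number. The rule matched 61 genes, and 49 of them had a probe set of their own, out of 17905 genes with such a probe set. These were 17 of 23 ARF genes, 26 of 28 IAA genes, the only SAUR gene matched (SAUR39) and 5 of 9 PIN genes. Among those matched by name and not analysed here were ARF5, ARF8, ARF19, ARF21, ARF25, IAA11, IAA29, PIN1A, PIN1B, PIN1C and PIN5B. Names are those the RefSeq gene table lists as synonyms of each record, and some records carry a second number from another naming scheme. The record called ARF1 here is also ARF16, ARF4 is also ARF2, ARF12 is also ARF8, ARF18 is also ARF10 and ARF23 is also ARF1. IAA4 is also IAA20, IAA5 is also IAA8, IAA13 is also IAA1, PIN5A is also PIN6 and PIN9 is also PIN5. PIN4 is also PIN5B and PIN5C, and the PIN5B listed above as not analysed is a separate record. The panicles came from the heat tolerant line 252 and the heat sensitive line 082. Each line had a high-temperature group, given days at 37 °C and nights at 30 °C over 5 days, and an optimal-temperature group with days at 30 °C and nights at 25 °C, with 3 arrays in each of the 4 groups. The labels call the 3 arrays biological replicates and say no more of their origin, so p-values measure the spread between these arrays. The age of the panicles was not given in the sources used here. Heat and a difference in panicle age between the groups therefore cannot be told apart.

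Auxin is read in the nucleus by auxin response factors (ARF), which bind DNA at auxin-responsive genes. Aux/IAA proteins (IAA) hold them in check until auxin joins the IAA protein to its TIR1/AFB receptor and the IAA protein is degraded. Many IAA and SAUR genes are themselves switched on by auxin, and PIN proteins carry auxin out of cells and so set its direction of flow. In the grass panicle this pathway takes part in branching, in the forming of spikelets and floral organs, and in the growth of stamens. The array reads RNA of whole panicles, in which fewer cells of a type and less RNA per cell cannot be told apart.

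Replicate arrays correlated at 0.954 to 0.975 (Pearson's r of log2 signals). All 11 records of floral organ markers lay above the array median on every array, with summed signals of 17880 to 21338 at optimal temperature in line 082 and 33990 to 62480 in the other groups. Single floral records went both ways. In line 082 the mean of MADS16 was 3483 at optimal and 13460 at high temperature, and that of MADS58 was 4369 and 2474. In line 252 MADS16 had 4367 and 15626, and MADS4 had 1385 and 413. The 5 cell division markers summed to 9343 to 13066 at optimal temperature in line 252 and 4413 to 6814 in line 082, and to 75.4 to 262 on the high-temperature arrays. The 5 endosperm and grain markers summed to 88858 to 111135 in line 082 at optimal temperature and to at most 259 at high temperature. In line 252 at optimal temperature they ran from 131 to 12189, the highest on replicate 1, which stood apart from the other arrays of its group in this respect. The 3′ to 5′ signal ratio of the Dap control transcript was 12.9 ± 0.486 and 12.1 ± 0.846 (SD, n = 3) at high temperature in lines 252 and 082, against 1.62 ± 0.0364 and 1.86 ± 0.118 at optimal temperature. That of the Thr control was 20.5 and 22.3 against 4.23 and 3.29, and the Phe and Lys controls were also higher at high temperature in both lines. Heat and a difference in RNA or array handling between the temperatures therefore cannot be told apart either. The 3 photosynthetic records summed to 62310 to 71399 at high and 40973 to 48619 at optimal temperature in line 252, and to 53157 to 70740 and 39467 to 47974 in line 082. The 4 tapetum and pollen records were dim, with at most 1 above the array median on all arrays of a group. In line 082 they summed to 41.1 to 84.3 at high and 180 to 443 at optimal temperature. In line 252 the sums were 50.3 to 124 and 98.4 to 175, which overlapped. The cell division and photosynthetic sums and the control values thus parted the temperatures in both lines. The grain, floral, and tapetum and pollen sums did so in line 082. At optimal temperature the cell division, floral, grain, and tapetum and pollen sums also parted the lines. Their part in the results was not tested.

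Signals are the deposited linear intensities, and log2 changes were taken on log2 of the signal plus 16. A gene is said to rise or fall where limma's adjusted p, over all 33610 tested probe sets, was under 0.05 and the log2 change was at least 1 in size. Of the 49 genes 35 lay above the median of their array on all 12 arrays, 11 on 3 to 11 arrays and 3 on fewer (IAA9, IAA16 and IAA26). Those 3 were not tested, which leaves 46. Mean signal was highest in line 252 at optimal temperature for 25 of the 49 genes, in line 082 at optimal temperature for 12, in line 082 at high temperature for 9 and in line 252 at high temperature for 3. Among the ARF genes alone these counts were 11, 4, 2 and 0 of 17. The 49 include the 3 genes that were not tested, and no such count was made over all probe sets. The 75th percentile of array signals averaged 515 for the optimal arrays of line 252 and 456 for those of line 082. For the heated arrays it averaged 415 in line 252 and 399 in line 082. Array medians averaged 59.4 and 62.4 for the optimal arrays of lines 252 and 082, and 39.4 and 38.3 for the heated ones. Their part in these counts was not tested.

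At high temperature 6 of the 46 tested genes rose and 14 fell in line 252. That is 43.5%, beside 28.8% of all probe sets in the same comparison (9.42% higher and 19.4% lower). In line 082 8 rose and 12 fell, again 43.5%, beside 36.1% of all probe sets (14.2% higher and 21.9% lower). The median log2 change was −0.70 in line 252 and −0.14 in line 082, where all tested probe sets had medians of −0.20 and −0.15. SAUR39, PIN3A, IAA1, IAA2, IAA6 and IAA25 rose in both lines. ARF1, ARF3, ARF10, ARF13, IAA14 and PIN2 fell in both. ARF13 and PIN2 entered the test only through the optimal arrays of line 252, where they are highest, so their calls against that group are favoured by the filter. With both set aside, 6 of 44 rose and 12 fell in line 252 (40.9%), and 8 rose and 10 fell in line 082 (40.9%). IAA20, above the array median on optimal arrays only, stayed in these counts. ARF7, ARF9, ARF12, IAA4, IAA7, IAA12, IAA30 and IAA31 fell in line 252 without passing in line 082. ARF14, ARF16, IAA20, IAA21, PIN5A and PIN9 fell, and IAA18 and IAA24 rose, in line 082 without passing in line 252. No gene rose in one line and fell in the other, and 18 passed in neither line. The split moved with the scaling and with the filter on low signals, and that of all probe sets moved too. In the main fit 3167 probe sets were higher and 6523 lower in line 252, and 4788 and 7353 in line 082. A stricter filter at the 75th percentile gave 6 higher and 6 lower in line 252 and 8 and 6 in line 082. Of all probe sets it gave 2584 and 2948, and 3727 and 3484. Quantile normalization gave 6 higher and 13 lower in line 252 and 8 and 7 in line 082. Of all probe sets it gave 4401 and 4584, and 6227 and 5434. Scaling to the hybridization spikes gave 4 and 24 in line 252 and 8 and 13 in line 082. Of all probe sets it gave 1685 and 10204, and 4005 and 8189, and it moved their median to −0.58 and −0.26.

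**Figure D1:**
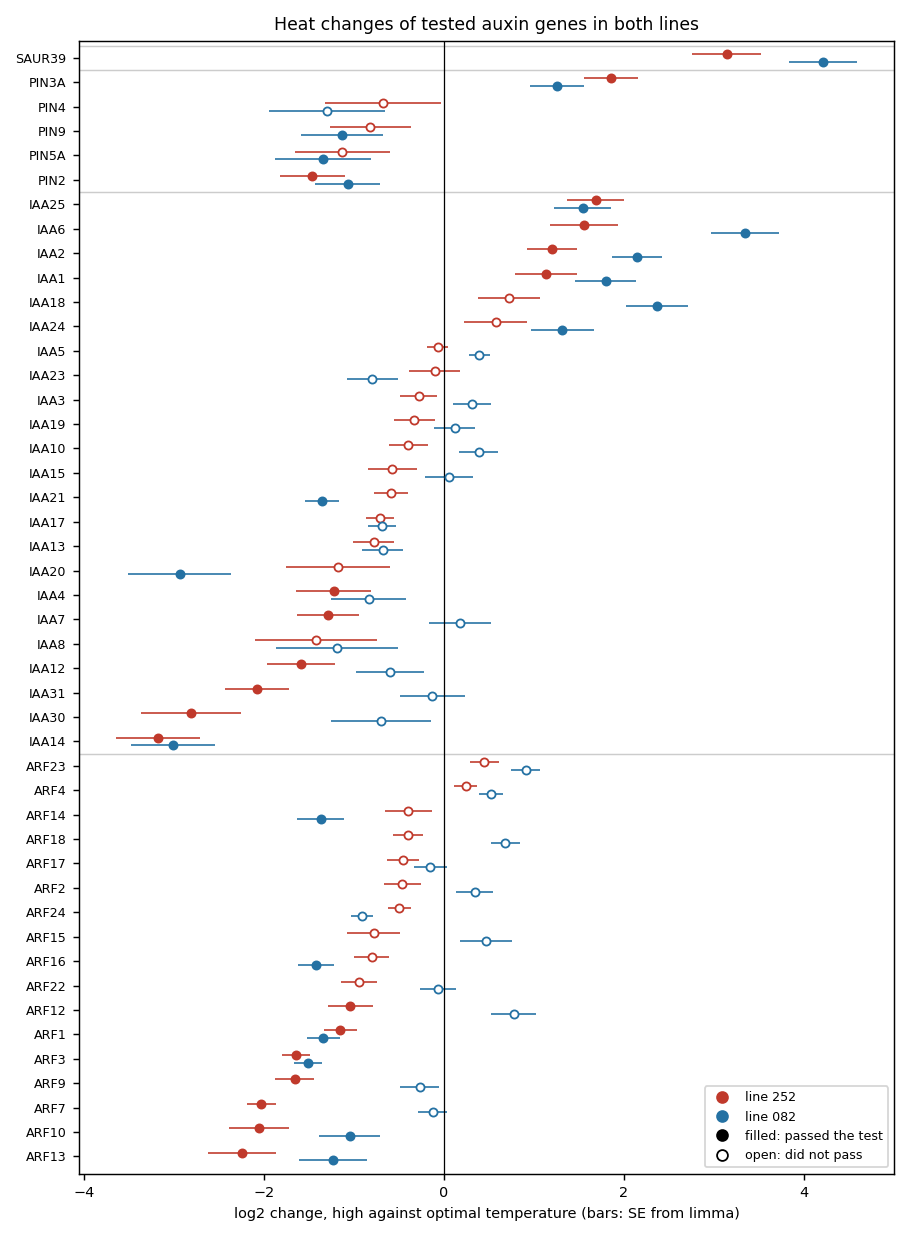
The log2 change at high against optimal temperature (horizontal axis) is plotted for the 46 tested auxin genes, grouped by family, with line 252 in red, line 082 in blue, bars for the SE from limma and filled points for genes that passed the test. ARF points lie mostly left of 0 in line 252, while SAUR39 lies farthest right, at 3.14 and 4.22.

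None of the 17 ARF genes rose in either line, where 9.42% and 14.2% of all probe sets were higher in lines 252 and 082. In line 252 7 fell (41.2%, or 37.5% for 6 of 16 without ARF13), beside 19.4% of all probe sets. The median log2 change there was −0.81, with a range from −2.25 to 0.45. In line 082 6 fell (35.3%, or 31.2% for 5 of 16 without ARF13), beside 21.9% of all probe sets. The median there was −0.15, from −1.51 to 0.91. In either direction 28.8% and 36.1% of all probe sets passed. ARF3 (LOC4327014), which belongs with ARF2, ARF14 and ARF15 to the ETTIN-like factors controlled by trans-acting small RNAs, fell in both lines. Its signals in line 252 were 2340.2, 2392 and 2117 at optimal and 737, 667 and 755 at high temperature. In line 082 they were 1927, 1382 and 1954 at optimal and 573, 539 and 687 at high temperature. All 6 high-temperature arrays lay below all 6 optimal arrays. The log2 changes of ARF3 were −1.64 ± 0.16 (SE, n = 3 arrays per group) in line 252 and −1.51 ± 0.16 in line 082, with adjusted p of 5.73e-06 and 7.74e-06 from limma. ARF1 also fell in both lines, by log2 changes of −1.16 and −1.34, and with centring on the 75th percentile the call in line 252 was lost, at −0.85.

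ARF7 (LOC4329672) and ARF9 (LOC4335934) fell in line 252. For ARF7 the signals in line 252 were 1500.3, 2053 and 1642 at optimal and 396, 402 and 424 at high temperature. Those of line 082 were 511, 496 and 551 at optimal and 475, 403 and 556 at high temperature. The optimal arrays of line 252 thus stood above the other 9 arrays, which overlapped. The log2 change of ARF7 was −2.03 ± 0.16 in line 252 (limma adjusted p = 1.51e-06) and −0.13 ± 0.16 in line 082 (adjusted p = 0.54). ARF9 gave 1467, 1939 and 1649 at optimal and 476, 458 and 636 at high temperature in line 252. In line 082 ARF9 gave 1032, 681 and 754 at optimal and 833, 519 and 685 at high temperature. Here too the optimal arrays of line 252 were the highest, and the arrays of line 082 overlapped between temperatures. Its log2 changes were −1.66 ± 0.21 (limma adjusted p = 5.43e-05) and −0.27 ± 0.21 (adjusted p = 0.303).

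ARF12 (LOC4337363) is an activating ARF and, with ARF17, a target of the microRNA miR167. In line 252 its signals were 4386, 7781 and 6503 at optimal and 2659, 2701 and 3511 at high temperature. The arrays of line 082 gave 1647, 1414 and 899 at optimal and 2491, 2349 and 1820.3 at high temperature. The 2 temperatures did not overlap in either line, with the high-temperature arrays lower in line 252 and higher in line 082. The fall in line 252, −1.04 ± 0.25 (limma adjusted p = 0.00407), passed. The change in line 082, 0.77 ± 0.25 (adjusted p = 0.0178), was under the minimum size. The call in line 252 lay close to that minimum and was lost when replicate 1 or 2 of the heated arrays of line 252, or replicate 2 or 3 of its optimal arrays, was left out, at log2 changes of −0.99 to −0.86, and with centring on the 75th percentile. ARF17 had log2 changes of −0.46 and −0.15 and passed in neither line.

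ARF10 (LOC4336419) is a target of the microRNA miR160, as are ARF18 and ARF22. ARF10 gave 393, 576 and 439 at optimal and 93.5, 86.4 and 119.9 at high temperature in line 252. In line 082 ARF10 gave 232, 131 and 112 at optimal and 46.2, 47.4 and 117 at high temperature. The groups of line 252 were apart, while in line 082 replicate 3 at high temperature lay within the optimal arrays. The log2 changes were −2.06 ± 0.34 (limma adjusted p = 0.000319) and −1.05 ± 0.34 (adjusted p = 0.0185). The call in line 082 was lost when replicate 1 or 2 of the heated arrays of that line, or replicate 1 of its optimal arrays, was left out, at log2 changes of −0.88 to −0.77. It was also lost under quantile normalization, at −0.53 (adjusted p = 0.218), with centring on the 75th percentile, at −0.89, with a constant of 64, at −0.73, and in a fit of the compared groups alone (adjusted p = 0.052). ARF18 and ARF22 passed in neither line. Their log2 changes were −0.40 and −0.94 in line 252, and 0.68 and −0.07 in line 082.

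ARF16 (LOC9270361), another activating ARF, gave 768, 836 and 737 at optimal and 381, 439.6 and 504 at high temperature in line 252. In line 082 ARF16 gave 662, 1106 and 927 at optimal and 363, 276 and 319 at high temperature. High-temperature arrays were lower without overlap in both lines. The log2 change was −0.81 ± 0.20 in line 252, under the minimum size (limma adjusted p = 0.00498), and −1.43 ± 0.20 in line 082 (adjusted p = 6.57e-05). ARF14 also fell in line 082, by a log2 change of −1.37, against −0.40 in line 252.

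ARF13 (LOC9269399) was dim, above the array median only on the 3 optimal arrays of line 252. It passed the filter through that group alone, and its size of change rests on the constant added before the log. In line 252 it gave 163, 61.5 and 76.8 at optimal and 0.972, 7.66 and 13.7 at high temperature. In line 082 it gave 45.6, 47.7 and 41.0 at optimal and 9.80, 17.2 and 3.91 at high temperature. The log2 changes were −2.25 ± 0.38 and −1.24 ± 0.38. Fitted with no filter on low signals they kept their calls, at limma adjusted p of 0.000511 and 0.0220. With a constant of 1 they were −3.88 and −2.21, and with 64 they were −1.16 and −0.55. ARF13 was not tested once any optimal array of line 252 was left out, and its call in line 082 was also lost without replicate 3 at high temperature of that line, at −1.05, and under quantile normalization, at −0.84.

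The other ARF genes passed in neither line. ARF23 and ARF24, which in rice act on the actin-organising gene RMD, had log2 changes of 0.45 and −0.50 in line 252 and 0.91 and −0.91 in line 082. ARF4, known for its effect on grain size, had 0.24 and 0.52. For ARF2, −0.46 and 0.34 were measured, and for ARF15 −0.78 and 0.47. ARF2, ARF4 and ARF23 each have a further tested probe set that differed in sign from the one used in at least 1 line, with no call on either.

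**Figure D2:**
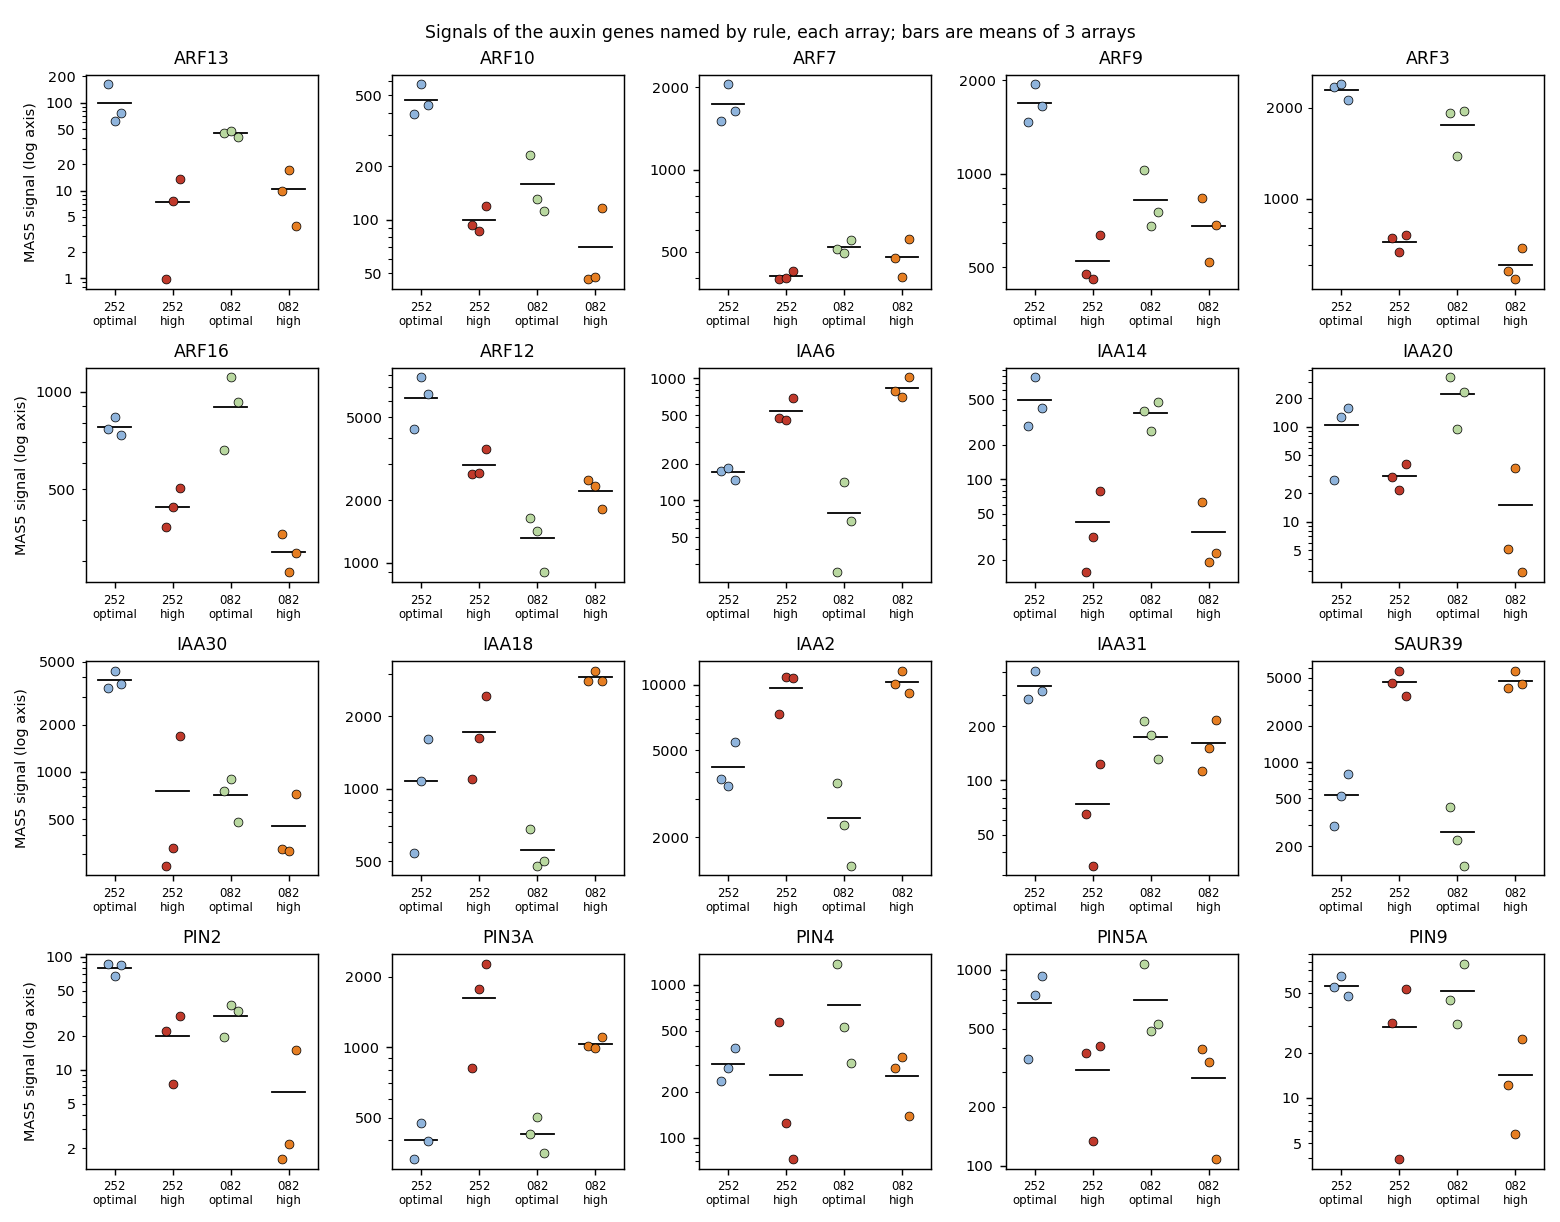
Signals on a log axis are plotted for the 20 auxin genes described array by array, with 1 point per array, a bar for the mean of 3 arrays, and the 4 groups along the horizontal axis of each panel. For ARF7, ARF9 and IAA30 the 3 optimal arrays of line 252 stand above all other arrays, and for SAUR39 and PIN3A all high-temperature arrays stand above all optimal ones.

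Of the 26 IAA genes 23 were tested. In line 252 4 rose and 6 fell (43.5%, beside 28.8% of all probe sets). The median log2 change there was −0.57, with a range from −3.18 to 1.69. In line 082 6 rose and 3 fell (39.1%, beside 36.1% of all probe sets), with a median of 0.05 and a range from −3.01 to 3.35. IAA6 (LOC4326541), which in rice is tied to drought response and tillering, rose in both lines. The signals in line 252 were 175, 186 and 148 at optimal and 470.4, 455 and 686 at high temperature. Those of line 082 were 25.8, 143 and 68.6 at optimal and 788, 703 and 1015 at high temperature. All high-temperature arrays lay above all optimal arrays, and the order of the lines turned with temperature. Log2 changes were 1.56 ± 0.38 (limma adjusted p = 0.00482) and 3.35 ± 0.38 (adjusted p = 1.42e-05).

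IAA2 (LOC4326775) gave 3713, 3417 and 5474 at optimal and 7334, 10821 and 10737 at high temperature in line 252. In line 082 IAA2 gave 3548, 2285 and 1480.3 at optimal and 10090.0, 11612 and 9132 at high temperature. All high-temperature arrays again lay above all optimal ones. IAA2 rose by log2 changes of 1.20 ± 0.28 (limma adjusted p = 0.00357) and 2.15 ± 0.28 (adjusted p = 4.02e-05). IAA25 rose by 1.69 and 1.54. IAA1 rose by 1.14 and 1.80, but its second probe set passed in neither line, at 0.59 and 0.48. The call of IAA1 in line 252 was lost without replicate 2 at high or replicate 1 at optimal temperature of that line, at log2 changes of 1.04 and 0.75. Scaling to the spikes ended the calls of IAA1 and IAA2 in line 252, at 0.70 and 0.77, and the mean over its probe sets that of IAA1, at 0.86.

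IAA18 (LOC4339365) rose in line 082. Its signals there were 681, 479 and 502 at optimal and 2796, 3089 and 2791 at high temperature. In line 252 they were 543, 1072 and 1605 at optimal and 1099, 1616 and 2422 at high temperature, and the temperatures overlapped. The log2 change was 2.37 ± 0.34 in line 082 (limma adjusted p = 9.5e-05) and 0.72 ± 0.34 in line 252 (adjusted p = 0.104). IAA24 also rose in line 082, by 1.32, and that call was lost without replicate 3 at optimal temperature of the line, at 0.87.

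IAA14 (LOC4334431) fell in both lines. Its signals in line 252 were 293, 776 and 419 at optimal and 15.4, 31.8 and 79.6 at high temperature. The arrays of line 082 gave 396, 262 and 476 at optimal and 63.2, 19.0 and 22.6 at high temperature. No high-temperature array reached an optimal one, and 4 of the 6 high-temperature arrays were under their array's median. The log2 changes were −3.18 ± 0.47 (limma adjusted p = 0.000146) and −3.01 ± 0.47 (adjusted p = 0.000158). With constants of 1 and 64 in place of 16 they ran from −3.70 to −2.35 in line 252 and from −3.56 to −2.16 in line 082.

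IAA20 (LOC4340245) fell in line 082, from 331, 95.7 and 232 at optimal to 5.15, 37.0 and 2.92 at high temperature. In line 252 it gave 27.8, 128 and 159 at optimal and 29.3, 21.4 and 40.2 at high temperature, where replicate 1 at optimal temperature lay among the high-temperature arrays. These are log2 changes of −2.94 ± 0.58 (limma adjusted p = 0.000904) and −1.18 ± 0.58 (adjusted p = 0.115). All 6 high-temperature arrays were under their array's median, and in line 082 the log2 change was −4.33 with a constant of 1 and −1.77 with 64. IAA20 was above the median on 5 arrays, all optimal, and reached the 3 needed only with those of line 082. It is highest there, so its call in line 082 is favoured by the filter. IAA21 fell in line 082 as well, by a log2 change of −1.36, against −0.59 in line 252.

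IAA30 (LOC4352721) and IAA31 (LOC4352722) fell in line 252. IAA30 gave 3412, 4406 and 3645 at optimal and 254, 331 and 1681 at high temperature there. In line 082 IAA30 gave 758, 904 and 480.4 at optimal and 322, 315 and 723 at high temperature. Replicate 3 at high temperature was the highest of its group in both lines, and in line 252 it still lay below every optimal array. The log2 changes of IAA30 were −2.82 ± 0.55 (limma adjusted p = 0.00121) and −0.70 ± 0.55 (adjusted p = 0.307). IAA31 gave 285, 409 and 314 at optimal and 65.2, 33.6 and 123 at high temperature in line 252. In line 082 IAA31 gave 215, 178 and 131 at optimal and 114, 152 and 216 at high temperature, which overlapped. Its log2 changes were −2.08 ± 0.36 (limma adjusted p = 0.000456) and −0.13 ± 0.36 (adjusted p = 0.782).

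IAA12, IAA7 and IAA4, each above the array median on 1 of the 3 high-temperature arrays of line 252, fell in that line by log2 changes of −1.59, −1.29 and −1.23. In line 082 they had −0.60, 0.18 and −0.84 and did not pass. The call of IAA4 was lost without any one of 5 of the 6 arrays of line 252, all but replicate 1 at high temperature, at log2 changes of −1.29 to −0.68. Quantile normalization ended the calls of IAA12, IAA7 and IAA4, at −1.04, −0.75 and −0.77. A constant of 64 ended those of IAA7 and IAA4, at −0.82 and −0.64, and IAA4 was also lost with centring on the 75th percentile, with no filter and in a fit of the compared groups alone. The 9 tested IAA genes that passed in neither line were IAA3, IAA5, IAA8, IAA10, IAA13, IAA15, IAA17, IAA19 and IAA23. IAA13 and IAA23, known in rice for lateral root formation and for the root quiescent centre, had log2 changes of −0.78 and −0.10 in line 252 and −0.68 and −0.80 in line 082. A second probe set of IAA23 had 0.31 and 0.14, opposite in sign, and did not pass either. IAA8 had −1.43 and −1.19 and did not pass, with 53.4, 36.1 and 548 on the high-temperature arrays of line 252, where replicate 3 was far above the others. In line 082 IAA8 gave 192, 164 and 94.4 at optimal and 63.1, 47.7 and 53.0 at high temperature, without overlap. The fit uses 1 estimate of the spread for all 4 groups, and the SE was 0.68 in both lines.

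SAUR39 (LOC9271092) belongs to the small auxin-up RNAs and is known in rice as a gene that lowers auxin synthesis and transport. In line 252 it gave 293, 520.2 and 797 at optimal and 4562, 5758 and 3509.9 at high temperature. In line 082 they were 426, 224 and 138 at optimal and 4091, 5668 and 4466 at high temperature. All 6 high-temperature arrays lay far above all 6 optimal ones, and the lines overlapped at each temperature. The means were 537 ± 252 and 4609.8 ± 1125 (SD, n = 3) in line 252, and 263 ± 148 and 4742 ± 824 in line 082. SAUR39 rose by log2 changes of 3.14 ± 0.38 (limma adjusted p = 3.45e-05) and 4.22 ± 0.38 (adjusted p = 2.83e-06). With constants of 1 and 64 the log2 change ran from 3.19 to 3.02 in line 252 and from 4.31 to 3.96 in line 082. Both calls were kept in all 24 alternative settings.

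Of the 5 PIN genes 1 rose and 1 fell in line 252 (40%, beside 28.8% of all probe sets). In line 082 1 rose and 3 fell (80%, beside 36.1% of all probe sets). With PIN2 set aside these are 1 and 0, and 1 and 2, of 4. PIN3A (LOC4326565), an efflux carrier tied to drought response in rice, rose in both lines. The signals in line 252 were 334, 474 and 398 at optimal and 818, 1768 and 2271 at high temperature. Those of line 082 were 427, 502 and 353 at optimal and 1007, 991 and 1104 at high temperature. All high-temperature arrays lay above all optimal arrays, and replicate 1 of line 252 was the lowest of them. Log2 changes were 1.86 ± 0.30 (limma adjusted p = 0.000272) and 1.26 ± 0.30 (adjusted p = 0.0033). A second probe set of PIN3A rose as well, by 2.26 and 2.27. The probe set used for PIN3A carries the array maker's mark for probes that may bind more than 1 transcript.

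PIN2 (LOC4341736), known for root gravitropism, was dim and above the array median only on the 3 optimal arrays of line 252. There it gave 86.9, 67.8 and 84.2, against 21.9, 7.54 and 29.9 at high temperature. In line 082 PIN2 gave 19.3, 37.3 and 33.2 at optimal and 1.62, 2.20 and 15.0 at high temperature. High-temperature arrays were lower without overlap in both lines. PIN2 entered the test through the optimal arrays of line 252 alone. The log2 changes were −1.47 ± 0.36 and −1.07 ± 0.36. With no filter on low signals both calls were kept, at limma adjusted p of 0.00772 and 0.0351. With a constant of 64 both fell below the minimum size, at −0.78 and −0.42. PIN2 was not tested once any optimal array of line 252 was left out, and the call in line 082 was lost when replicate 1 or 2 of the heated arrays of that line, or replicate 2 or 3 of its optimal arrays, was left out, at −1.01 to −0.93, and under quantile normalization, at −0.76.

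PIN5A (LOC4324368) gave 1073, 489.9 and 529 at optimal and 397, 340.2 and 109 at high temperature in line 082, without overlap. In line 252 PIN5A gave 350.3, 742 and 928 at optimal and 378, 133 and 409 at high temperature, with replicate 1 at optimal temperature among the high-temperature values. These are log2 changes of −1.34 ± 0.53 (limma adjusted p = 0.0478) and −1.13 ± 0.53 (adjusted p = 0.102). The call in line 082 was lost in 8 of the 12 fits that leave out an array, with 5 of the 6 arrays of line 082 among them and log2 changes of −1.56 to −0.80. It was also lost in 6 other alternatives, at −1.41 to −1.13.

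PIN9 (LOC4327533), also dim, gave 44.6, 30.9 and 77.6 at optimal and 12.3, 5.79 and 24.6 at high temperature in line 082. In line 252 PIN9 gave 54.0, 64.7 and 47.1 at optimal and 31.3, 3.95 and 52.8 at high temperature, which overlapped. Log2 changes were −1.14 ± 0.45 (limma adjusted p = 0.0499) and −0.82 ± 0.45 (adjusted p = 0.162). Only 3 arrays lay above their median, and the call in line 082 was lost in 6 of the fits that leave out an array and not tested in 3 more. It was also lost in 6 other alternatives, at −1.88 to −0.54.

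PIN4 (LOC4346116) passed in neither line. Its signals in line 252 were 234, 288 and 386 at optimal and 576, 126 and 72.7 at high temperature. The arrays of line 082 gave 1376, 528 and 309 at optimal and 286, 335 and 138 at high temperature. The temperatures overlapped in both lines, with replicate 1 of line 252 at high temperature and replicate 1 of line 082 at optimal temperature above the rest of their groups. The log2 changes were −0.68 ± 0.65 (limma adjusted p = 0.419) and −1.30 ± 0.65 (adjusted p = 0.105).

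The heat changes of the lines were compared by their difference, line 252 minus line 082, fitted as 1 contrast over the 12 arrays. Of the 46 tested genes 9 passed, all of them lower in line 252. That is 19.6%, beside 23.3% of all probe sets (11.0% higher and 12.3% lower). The median difference was −0.46, against −0.08 over all tested probe sets. The 9 were ARF7 at −1.91 ± 0.23 (limma adjusted p = 0.000108), ARF9 at −1.39, ARF12 at −1.82, ARF15 at −1.25, ARF18 at −1.08, IAA6 at −1.79, IAA7 at −1.47, IAA18 at −1.64 and IAA31 at −1.95. For IAA6 both lines rose and the rise was smaller in line 252. The differences of ARF7, ARF9, ARF12 and IAA31 passed whichever array was left out. The other 5 were each lost in 2 to 9 of the 12 such fits. ARF18 went to −0.98 without replicate 3 of line 082 or replicate 2 of line 252 at optimal temperature. IAA6 was lost without the heated replicate 3 of line 082, the heated replicate 2 of line 252, or replicate 2 of line 252 at optimal temperature, at −1.73 to −1.65. IAA18 was lost in 5 of these fits at −1.59 to −1.29, IAA7 in 8 at −1.55 to −1.23 and ARF15 in 9 at −1.30 to −1.05. Without replicate 2 of line 252 at optimal temperature the number of genes that passed fell to 4. IAA30 had the most negative difference, −2.12 ± 0.78, with an adjusted p of 0.0584 from limma.

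At high temperature no tested auxin gene differed between the lines by the rule, beside 1.76% of all probe sets (0.622% higher and 1.14% lower in line 252). By limma without adjustment 5 of the 46 had a p under 0.05, the smallest adjusted p was 0.0839, and none of the 24 alternative settings gave a call. The median difference between the lines was −0.04.

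At optimal temperature 11 genes were higher and 1 was lower in line 252, which is 26.1% of the 46, beside 27.4% of all probe sets (15.3% higher and 12.1% lower). The median difference was 0.59, against 0.11 over all tested probe sets. This contrast shares its optimal arrays with both heat contrasts, so its values are not independent of those above. IAA30 was higher by 2.43 ± 0.55 (limma adjusted p = 0.00335), with means of 3821 ± 519.8 in line 252 and 714 ± 215 in line 082 (SD, n = 3). ARF12 was higher by 2.23 ± 0.25 (adjusted p = 1.91e-05, limma), with means of 6223 ± 1714 and 1319.9 ± 383. ARF7 was higher by 1.70, ARF10 by 1.52, IAA7 by 1.24, IAA6 by 1.16, ARF15 by 1.15, IAA12 by 1.07, ARF9 by 1.03 and SAUR39 by 1.01. PIN2, with 1.07, entered the test only through the optimal arrays of line 252. Without it and ARF13 10 of 44 were higher and 1 lower (25.0%). ARF14 was the gene lower in line 252, at −1.46 ± 0.26 (limma adjusted p = 0.000673). Its signals at optimal temperature were 586, 325 and 404 in line 252 and 1040.4, 1827 and 904 in line 082, without overlap. ARF7, ARF10, ARF12, ARF14 and IAA30 passed whichever array was left out. Of the others, ARF9 was lost at 0.91 to 0.98, ARF15 at 0.95 to 0.96, IAA12 at 0.96 to 1.03, IAA6 at 0.67 to 1.18, IAA7 at 0.998, PIN2 at 0.90 to 1.13 and SAUR39 at 0.65 to 1.01 when single arrays were left out. Without replicate 2 of line 252 at optimal temperature 6 genes in all passed. Centring on the 75th percentile gave 6 higher and 2 lower, beside 4069 and 4888 of all probe sets. Scaling to the spikes gave 20 and 1, beside 7185 and 3155 of all probe sets. In the main fit 5142 of all probe sets were higher and 4066 lower.

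**Figure D3:**
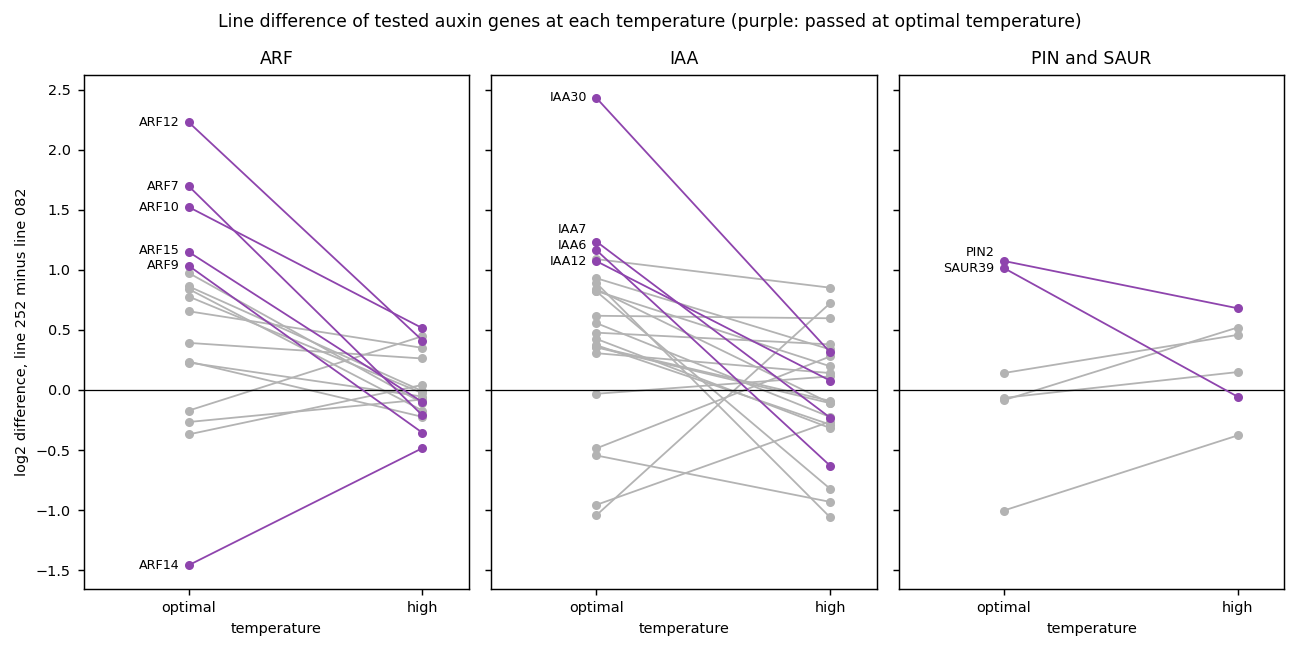
The log2 difference of line 252 minus line 082 is plotted for the tested genes at optimal and at high temperature, with 1 line per gene, panels for ARF, IAA, and PIN with SAUR, and purple for genes that passed at optimal temperature. Purple points spread from −1.46 for ARF14 to 2.43 for IAA30 at optimal temperature, and at high temperature no gene passed.

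The rest of the auxin pathway was read from a list of 24 measured genes, 21 of them tested, which act in synthesis, co-repression, conjugation and PIN sorting. In line 252 1 rose and 6 fell, and in line 082 1 rose and 13 fell, with medians of −0.50 and −1.37. These are 33.3% and 66.7% of the 21, beside 28.8% and 36.1% of all probe sets. FIB, a tryptophan aminotransferase of auxin synthesis, fell in both lines. In line 252 it gave 1085, 2096 and 2133 at optimal and 111, 118 and 109 at high temperature. In line 082 they were 858, 444 and 855 at optimal and 64.9, 95.1 and 115 at high temperature, and the temperatures did not overlap in either line. The log2 changes of FIB were −3.73 ± 0.31 (limma adjusted p = 2.05e-06) and −2.74 ± 0.31 (adjusted p = 1.47e-05). PID, the PINOID kinase that acts on PIN proteins, fell by −2.97 and −1.37.

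GH3 enzymes join auxin or jasmonate to amino acids, and ILL genes are named for hydrolases that free auxin from such conjugates. The record of GH3-5 also carries the name JAR1 and was kept in the counts. Whether GH3-5 acts on auxin or on jasmonate was not tested. Of the 16 tested genes of conjugation and inactivation 1 rose and 4 fell in line 252, and 1 rose and 10 fell in line 082. These are 31.2%, near the 28.8% of all probe sets in line 252, and 68.8%, beside 36.1% in line 082. GH3-8 gave 285, 289 and 319.6 at optimal and 349, 359 and 168 at high temperature in line 252. In line 082 GH3-8 gave 2681, 2009.5 and 3685 at optimal and 223, 353 and 723 at high temperature. The optimal arrays of line 082 stood above all others. Its log2 changes were −0.10 ± 0.38 (limma adjusted p = 0.86) and −2.76 ± 0.38 (adjusted p = 6.48e-05). ILL8 fell in both lines, by −1.75 and −4.73, as did GH3-4 by −1.57 and −2.53 and ILL6 by −2.27 and −2.33. GH3-1 rose in line 082 by 2.50, against 0.99 in line 252, and ILL5 rose in line 252 by 1.29, against 0.56 in line 082.

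In the difference of the heat changes 8 of the 21 genes were higher and 3 lower in line 252, which is 52.4%, beside 23.3% of all probe sets. The higher ones were ILL8 at 2.98, GH3-8 at 2.66, SGT1 at 2.04, GH3-5 at 1.50, GH3-11 at 1.36, GH3-2 at 1.32, ILL1 at 1.26 and DAO at 1.13. DAO oxidises auxin, and SGT1 is a co-chaperone of SCF ubiquitin ligases. The lower ones were ILL2 at −1.84, PID at −1.61 and GH3-1 at −1.52. The calls of DAO, GH3-5, GH3-11, ILL2 and PID were lost in 6 to 11 of the 12 fits that leave out an array. Of the 11 calls 6 were left without replicate 2 of line 252 at high temperature or replicate 3 of line 082 at optimal temperature, and 7 without replicate 1 of either line at high temperature or replicate 3 of line 252 at optimal temperature. At high temperature 0 of the 21 differed between the lines by the rule, and at optimal temperature 4 were higher and 8 lower in line 252 (57.1%, beside 27.4% of all probe sets). The co-repressor genes TPR2 and TPR3 passed in neither heat comparison.

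**Figure D4:**
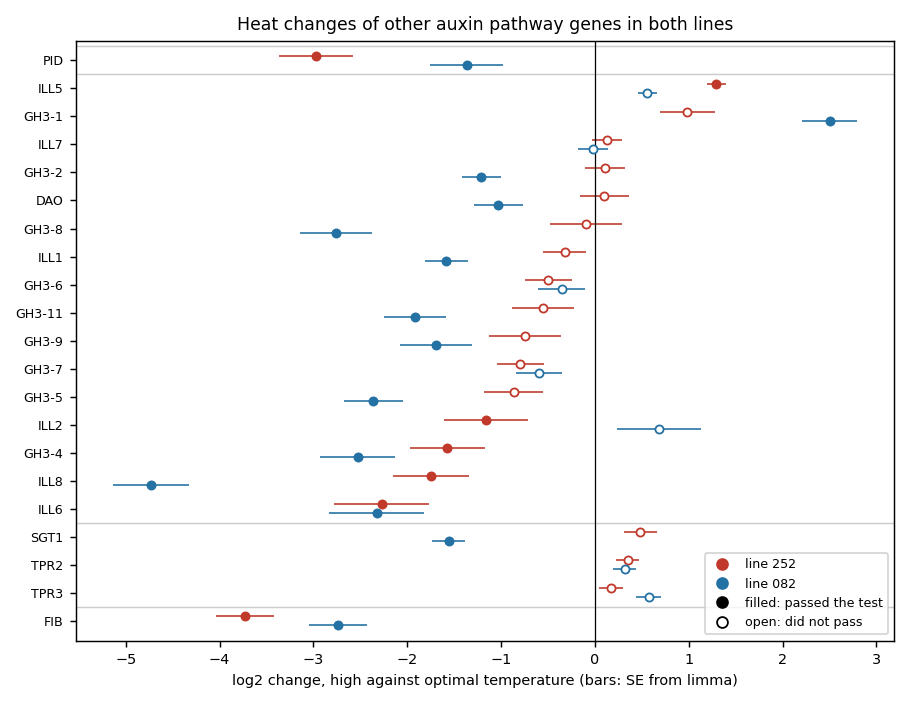
The log2 change at high against optimal temperature is plotted for the 21 tested genes of the rest of the auxin pathway, grouped by role, with line 252 in red, line 082 in blue, bars for the SE from limma and filled points for genes that passed. FIB lies left of 0 in both lines at −3.73 and −2.74, and GH3-8 does so in line 082 at −2.76.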

How the data were processed

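Whole-panicle RNA was read on 1-colour Affymetrix rice arrays. The authors deposited linear intensity values, and the submitters' processing notes name MAS5 as the tool. Its version, target and detection calls are not given in the sources used here. A 2% trimmed mean came to 500.1 on every array, and no normalization was added. Genes were assigned by the platform annotation, with names from RefSeq (Japonica, ASM3414082v1); 22436 of 57381 probe sets carried 1 gene. Of several probe sets, which 10 auxin genes had, the one brightest on average stood for its gene.

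Without the 187 controls, 33610 probe sets exceeded their array's median on at least 3 of 12 arrays. On log2 of signal plus 16, limma 3.58.1 (R 4.3.3) fitted 4 group means, leaving 8 residual degrees of freedom, with eBayes and its trend option. Benjamini-Hochberg adjustment covered all tested probe sets within each of 5 contrasts, namely heat in either line, their difference, and the lines at either temperature. Calls required adjusted p under 0.05 together with a log2 change of 1 or more in size. Simulated data were used to test this fit. Precision for single genes is limited by the 3 arrays per group.

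Values on all arrays are given for every PIN gene and, in the other families, for up to 6 genes with the largest called heat change and up to 3 with the largest called difference. Members, lists and this rule were chosen with earlier results of these data known. From the pathway list 4 records were set aside because their synonyms name other proteins (LAX1, LAX2, CRL4 and ASP1, the last after its values were seen), and no TIR1 or AFB gene was matched. The fits were repeated with other scalings (quantile, 75th percentile, hybridization spikes), constants of 1 and 64, no filter or a stricter one at the 75th percentile, no trend, a replicate block, no fold minimum, the compared groups alone, averaged probe sets of a gene, and each array left out. A planned description of protein and promoter sequences was not made here.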

Additional observations from a re-analysis of the deposited data

Results flagged for a closer look

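For 9 auxin genes the heat change differed between the lines by limma's test of the difference itself, line 252 minus line 082. That is 19.6% of the 46 tested, beside 23.3% of all probe sets. The log2 differences were −1.91 ± 0.23 for ARF7, −1.39 ± 0.30 for ARF9, −1.82 ± 0.35 for ARF12, −1.25 ± 0.41 for ARF15, −1.08 ± 0.23 for ARF18, −1.79 ± 0.54 for IAA6, −1.47 ± 0.49 for IAA7, −1.64 ± 0.49 for IAA18 and −1.95 ± 0.51 for IAA31 (SE from limma). All 9 were lower in line 252. The differences of ARF7, ARF9 and ARF12 were kept in all 24 alternative settings. No group had the 4 arrays that a test for a single outlying array needs.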

How the results depend on the processing

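No called value of an auxin gene changed sign in any of the 24 alternative settings. In line 252 20 genes passed for heat, and 12 with the filter at the 75th percentile. Over all probe sets the same filter took the calls from 3167 higher and 6523 lower to 2584 and 2948. The other counts for heat stayed within 1.5 times of 20, ranging from 16 to 21 in line 252 and from 16 to 20 in line 082 when single arrays were left out. The difference of the heat changes had 9 calls and ranged from 4 to 13 with single arrays left out. For the lines at optimal temperature the count was 12. It was 6 with a constant of 64, 24 without a fold minimum, 21 with scaling to the hybridization spikes, and 6 to 14 with single arrays left out. Over all probe sets the lines at optimal temperature had 5142 higher and 4066 lower in the main fit. These became 4019 and 3272 with a constant of 64, 8539 and 6498 without a fold minimum, and 7185 and 3155 with the spikes. For the difference, centring on the 75th percentile gave 1 higher and 7 lower, beside 4210 and 3485 of all probe sets. The cause was not tested, except that without a fold minimum fewer conditions apply. The lines at high temperature had 0 calls in all settings. Of the called genes 8 of 20 for heat in line 252, 12 of 20 in line 082, 3 of 9 for the difference and 4 of 12 for the lines at optimal temperature were kept in every setting. For the rest of the auxin pathway the filter at the 75th percentile left 3 of 7 heat calls in line 252, 9 of 14 in line 082 and 7 of 11 for the difference, and 12 genes passed in line 252 without a fold minimum. Same-numbered arrays did not deviate together (correlations of −0.20 to 0.10 over probe sets, with 0 of 12 pairs above 0.1), so they were not paired in the main fit. The labels do not say whether such samples share anything besides the number. With the replicate block the counts were 20 and 19 for heat in lines 252 and 082, 8 for the difference, 0 at high and 11 at optimal temperature. Genes under the array median, such as ARF13, IAA20, PIN2 and PIN9, have changes whose size depends on the added constant. Signal over background limits them.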
